A study of Mus musculus with 12 samples.

Results

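The T lineage genes Tcf7, Lef1, Bcl11b, Notch1, Cd3e, Lck, Cd7 and Thy1 were examined by ATAC-seq, which reads out open chromatin as the number of fragments that a transposase releases from a region. A region of the deposited table was taken as a member when its GRCm38 position overlapped the body of 1 of these 8 genes, extended by 20 kb on each side (GENCODE M21 basic annotation). This rule used no measured value and gave 97 of the 121336 regions. Notch1 held 23 of them, Lef1 14, Thy1 13, Cd7 12, Tcf7 11, Lck 10, Bcl11b 8 and Cd3e 6. The window is a rule of distance, so a member region may act on another gene. Of the 97 regions, 10 lay within 500 bp of a start site of a member gene and 4 at promoters of the protein-coding neighbours Skp1a, Sec16a, Hdac1 and Usp2, and the other 83, called distal here, include 3 at starts of noncoding genes (A630014C17Rik, Gm48719 and Gm39323).

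The libraries came from bone marrow of young adult C57BL/6 mice. WT mice were compared with UREd/d littermates, which lack on both alleles the upstream regulatory element (URE) of Spi1, the gene of the transcription factor PU.1, and which were preleukemic at sampling. LSK cells (lineage-negative, Sca-1+, c-Kit+) contain stem and multipotent progenitor cells, and GMP (lineage-negative, Sca-1-, c-Kit+, Cd16/32+) are granulocyte-monocyte progenitors. The lineage gate included Cd3, Cd4 and Cd8, so mature T cells were meant to be left out. The 4 groups are called WT-LSK and URE-LSK for the former, WT-GMP and URE-GMP for the latter cells, and each held 3 libraries from separate mice. The deletion is in the germline, so every cell of a UREd/d mouse carries it. In sorted bulk cells, a few cells with a very open region and many cells with a slightly open one give the same value.

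T cells arise from marrow progenitors that enter the thymus, where the ligands of Notch1 start the T lineage program. Notch1 signalling induces Tcf7 (TCF1), and TCF1, with its relative Lef1, opens chromatin of T lineage genes. Bcl11b, switched on after them, seals commitment, while PU.1, high in the earliest thymic progenitors, has to be shut down for that step. Cd3e is a subunit of the T cell receptor complex, Lck is the kinase that starts its signalling, and Cd7 and Thy1 are surface glycoproteins of early and mature T cells. The comparison asks whether the elements of these genes were more open in progenitors in which PU.1 is low.

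Sequences of 7 regions are shown because the results below turn on them: the strongest gain at Bcl11b, the strongest loss at Lef1, the gains at Tcf7 and Cd3e, a gain and a loss seen in LSK without a counterpart in GMP (Cd7 and Notch1), and the promoter of Thy1. They are plus strand GRCm38 sequence, the whole region or its central 300 bases, and capitals mark words of the motif search, matched on either strand. The word for PU.1 was GAGGAAG. For RUNX it was AACCACA. The GATA and CEBP words were searched in the same way, and no word contains another.
Bcl11b intron, 38.8 kb downstream: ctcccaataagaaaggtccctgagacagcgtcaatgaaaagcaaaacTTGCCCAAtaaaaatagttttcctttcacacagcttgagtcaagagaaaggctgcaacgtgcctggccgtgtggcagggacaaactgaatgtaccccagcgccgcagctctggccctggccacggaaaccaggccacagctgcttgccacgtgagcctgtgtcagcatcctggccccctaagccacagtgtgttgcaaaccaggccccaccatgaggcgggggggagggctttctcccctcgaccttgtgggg
Lef1 intron, 108 kb downstream: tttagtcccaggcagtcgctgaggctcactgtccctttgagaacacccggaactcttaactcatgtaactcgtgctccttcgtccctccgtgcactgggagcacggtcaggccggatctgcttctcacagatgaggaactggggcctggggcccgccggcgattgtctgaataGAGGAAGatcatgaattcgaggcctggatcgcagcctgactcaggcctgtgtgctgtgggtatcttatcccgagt
Tcf7 intron, 6.42 kb downstream: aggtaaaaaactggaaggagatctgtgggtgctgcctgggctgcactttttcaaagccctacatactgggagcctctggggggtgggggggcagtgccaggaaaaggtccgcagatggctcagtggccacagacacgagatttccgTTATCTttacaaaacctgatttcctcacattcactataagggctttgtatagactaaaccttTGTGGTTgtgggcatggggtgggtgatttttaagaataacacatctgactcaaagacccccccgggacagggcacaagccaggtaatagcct
Cd3e, 16.1 kb downstream: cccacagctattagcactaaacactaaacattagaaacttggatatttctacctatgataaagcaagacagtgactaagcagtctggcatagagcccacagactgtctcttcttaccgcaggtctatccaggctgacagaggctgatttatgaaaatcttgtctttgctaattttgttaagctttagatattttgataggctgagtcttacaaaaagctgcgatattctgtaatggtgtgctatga
Cd7, 11.9 kb downstream: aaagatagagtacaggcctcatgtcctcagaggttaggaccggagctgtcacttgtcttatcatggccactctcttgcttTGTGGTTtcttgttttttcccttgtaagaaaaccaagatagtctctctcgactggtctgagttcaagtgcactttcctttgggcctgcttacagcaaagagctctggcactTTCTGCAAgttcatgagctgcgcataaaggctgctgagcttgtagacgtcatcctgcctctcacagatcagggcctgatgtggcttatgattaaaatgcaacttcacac
Notch1 intron, 20.3 kb downstream: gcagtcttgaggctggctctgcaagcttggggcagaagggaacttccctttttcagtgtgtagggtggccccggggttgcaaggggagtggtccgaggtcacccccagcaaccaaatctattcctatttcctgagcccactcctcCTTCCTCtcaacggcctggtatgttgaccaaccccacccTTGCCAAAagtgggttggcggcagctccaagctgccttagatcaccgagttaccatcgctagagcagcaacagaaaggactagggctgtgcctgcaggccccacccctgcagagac
Thy1 promoter: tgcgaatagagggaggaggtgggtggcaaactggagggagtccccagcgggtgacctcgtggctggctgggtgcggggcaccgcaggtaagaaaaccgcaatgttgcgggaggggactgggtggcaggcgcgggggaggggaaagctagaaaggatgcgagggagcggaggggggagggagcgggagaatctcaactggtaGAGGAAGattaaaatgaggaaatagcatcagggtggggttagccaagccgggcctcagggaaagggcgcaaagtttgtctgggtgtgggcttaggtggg
The stretch of Bcl11b is chr12:107964625-107964924 and holds a CEBP word. The Lef1 region, chr3:131218363-131218610, holds GAGGAAG. That of Tcf7, chr11:52276440-52276739, holds a GATA and a RUNX word, and that of Cd7, chr11:121027349-121027648, a RUNX and a CEBP word. The stretch of Notch1, chr2:26483368-26483667, holds the PU.1 word on the minus strand and a CEBP word, and the region has a second PU.1 word outside the part shown. The Thy1 stretch, chr9:44043768-44044067, holds GAGGAAG. None of the words searched occurs in the Cd3e region, chr9:44993374-44993619. Distances here and below run from the most upstream start of a transcript in the basic annotation to the middle of the region. At Notch1 this start is base 26503822, while the gene body used for the window runs on to base 26516663, so the regions called upstream of Notch1 lie nearer to its body than to that start.

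The libraries held 23072701 to 62204826 counts in regions. Values are CPM, counts scaled to the library total after TMM scaling. A count of 3 corresponded to 0.0520 to 0.126 CPM, depending on the library, which is the lower limit of what could be measured at a single region. The genotype labels were checked at the deleted element: its strongest region (chr2:91082790-91083700) had 36.0 to 46.2 CPM in the 6 WT libraries and at most 0.143 CPM in the 6 UREd/d libraries. The cell type labels were checked at promoters: summed over 6 GMP marker genes with a promoter region, among them Mpo and Elane, the level was 28.9 to 35.3 CPM in WT-LSK and 203 to 263 CPM in WT-GMP. This sum was uneven between the URE-LSK libraries, at 25.1 to 51.1 CPM (mean 33.9), and was 335 to 349 CPM in URE-GMP. Regions were called when edgeR's quasi-likelihood test gave an adjusted p under 0.05 and the absolute log2 fold change (log2FC) over 1, the thresholds of the study. All 97 member regions passed the filter on low counts, as did every region of the table.

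Elements of the T lineage genes both opened and closed in UREd/d cells. In LSK, 19 of the 97 regions rose and 13 fell, and in GMP 25 rose and 12 fell. Of all regions, 13.6% were called higher and 23.9% lower in URE-LSK, and 15.6% higher and 24.1% lower in URE-GMP. The members' shares were 19.6% and 13.4% in LSK and 25.8% and 12.4% in GMP. Their median log2FC was 0.29 in LSK and 0.40 in GMP, beside 0.14 and 0.06 over all regions. The shares plotted by list show these values. The order of gains and losses over the whole table turned with the scaling. With GC content offsets 22.0% of all regions were called higher and 20.4% lower in LSK, and 21.9% and 19.9% in GMP, while 26 member regions rose and 12 fell in LSK, and 31 and 9 in GMP. With loess offsets the shares over all regions were 21.3% and 19.1% in LSK and 21.5% and 17.8% in GMP, and the member counts 24 and 11, and 32 and 8.

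The split of the members in LSK also turned. With TMM factors from promoter regions 11 rose and 15 fell, beside 10.8% and 25.9% of all regions, and with library sizes alone 13 rose and 14 fell, beside 11.7% and 25.2%. In LSK the share called higher was thus close to that of all regions under these scalings. Without WT-LSK replicate 2, 12 rose and 14 fell, with 11.8% of all regions called higher. With glmTreat, edgeR's test of a change larger than a minimum fold, 7 rose and 9 fell in LSK, beside 7.13% and 18.8% of all regions. Within 50 kb of the gene bodies 27 of 168 regions rose and 28 fell (16.1% and 16.7%), beside 13.6% and 23.9% of all regions. In GMP more member regions rose than fell in all of these fits. With promoter TMM 22 rose and 13 fell, beside 13.6% and 26.2% of all regions, and with library sizes alone the counts were the same, beside 13.8% and 25.9%.

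**Figure D1:**
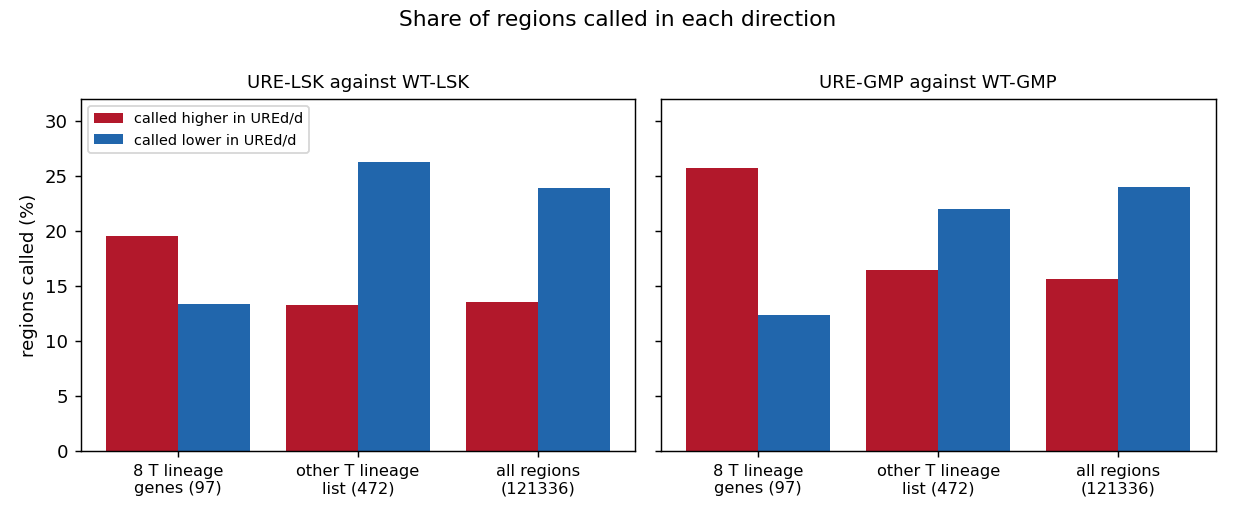
Percent of regions called higher (red) or lower (blue) in UREd/d than in WT cells, in LSK (left) and GMP (right), for the regions at the 8 T lineage genes, at 39 other T lineage genes and in the whole table. With TMM scaling over all regions, the red bars of the 8 genes (19.6% and 25.8%) stand above the blue ones (13.4% and 12.4%), and in the other lists below them.

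Part of the openings were shared between the cell types, as over the whole table. A region rose in both LSK and GMP at 12 positions (8.45% of all regions did so), in LSK alone at 7 and in GMP alone at 13. It fell in both at 9 (18.7% of all regions), in LSK alone at 4 and in GMP alone at 3. No member region was called in opposite directions, and 49 were called in neither cell type. Of all 121336 regions, 10253 rose in both, 6248 in LSK and not in GMP, and 8721 in GMP and not in LSK, a split much like that of the member rises. For falls these counts were 22748, 6287 and 6437. Of the same regions, 194 were called in opposite directions and 60836 in neither cell type. Being called in 1 cell type alone does not show a difference between them. The difference itself, the log2FC in GMP less the log2FC in LSK, was called at 20 regions, 16 positive and 4 negative, beside 8.96% positive and 5.03% negative over all regions. Of the 16, Thy1 held 7.

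Many of the regions that rose had been little accessible in WT cells. Of the 19 that rose in LSK, 11 were under 1 CPM on average in WT-LSK, where their median was 0.857 CPM, beside 7 of the 65 not called. Of the 25 that rose in GMP, 11 were under 1 CPM in WT-GMP, with a median of 1.38 CPM, beside 4 of the 60 not called. A region closed in WT cells enters the merged peak table only through a group in which it is open, which in part fixes this outcome. The calls lay mainly outside promoters: of the 10 promoter regions of member genes, none rose and 1 fell in LSK, and 1 rose and 1 fell in GMP. Calls were few at promoters of all genes too, with 3.83% of promoter regions called higher and 7.68% lower in LSK and 4.79% and 8.25% in GMP. Of the 83 distal regions 19 rose and 12 fell in LSK (22.9% and 14.5%) and 24 rose and 11 fell in GMP (28.9% and 13.3%), while of all regions outside promoters, those of noncoding genes left out too, 15.4% and 27.0% were called in LSK and 17.7% and 27.0% in GMP. The 3 UREd/d libraries did not overlap the 3 WT libraries at 46 regions higher and 22 lower in LSK (35.3% and 31.5% of all regions) and at 51 higher and 15 lower in GMP (33.3% and 32.1%).

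**Figure D2:**
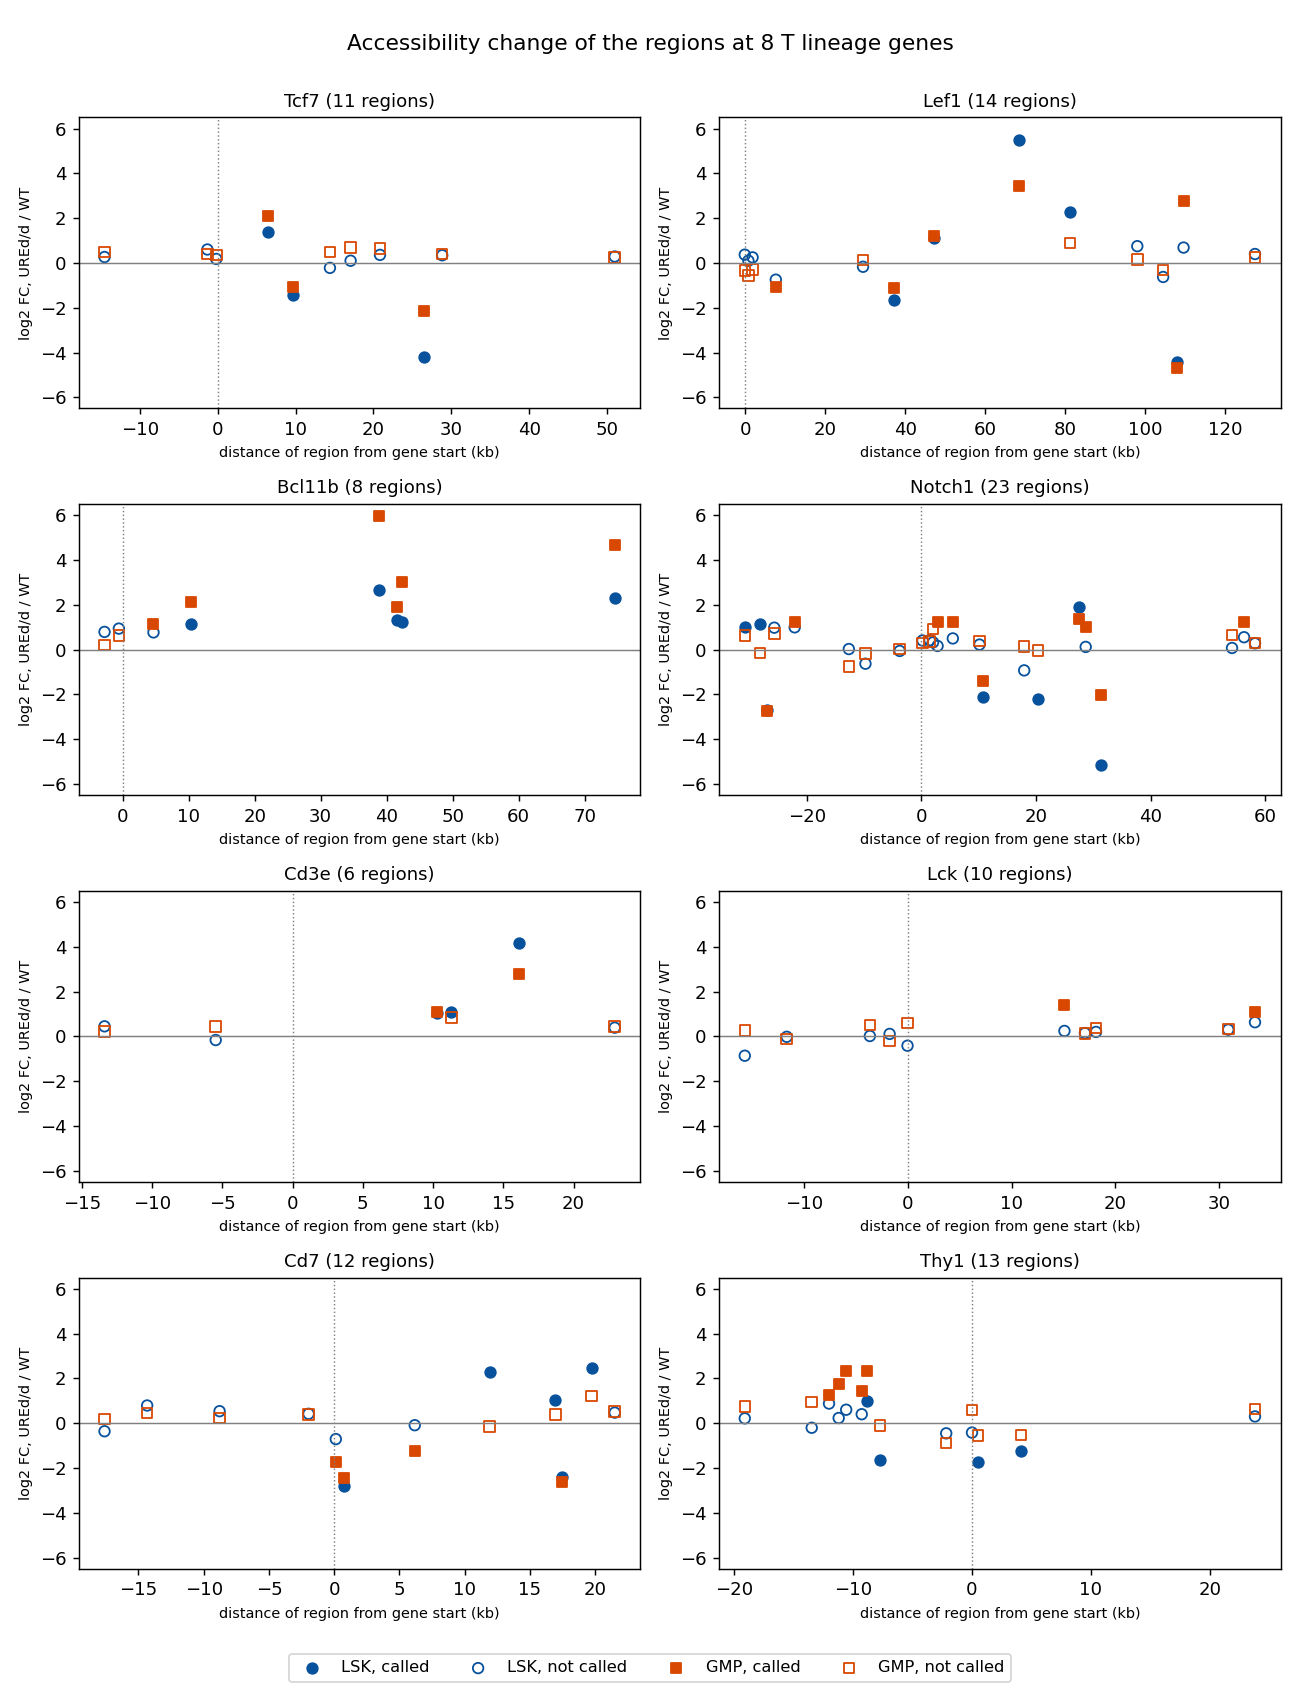
Log2 fold change of UREd/d against WT at every region of the 8 genes against its distance from the gene start in kb, in LSK (blue circles) and GMP (orange squares), filled where called. Filled symbols at Bcl11b, Cd3e and Lck (at Lck in GMP alone) all lie above 0, whereas Lef1, Notch1, Tcf7, Cd7 and Thy1 hold both.

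Bcl11b, the zinc finger factor of T cell commitment, changed in a single direction. Of its 8 regions, 5 rose in LSK and 6 in GMP, and none fell. The summed level of the locus was 13.9, 12.6 and 12.8 CPM in WT-LSK and 27.3, 22.7 and 26.8 CPM in URE-LSK. It was 11.1, 11.4 and 10.5 CPM in WT-GMP and 48.4, 39.6 and 38.3 CPM in URE-GMP, a ratio of means of 3.84, the highest of the 8 loci. At the other 7 genes 14 of 89 regions rose and 13 fell in LSK (15.7% and 14.6%), and 19 rose and 12 fell in GMP (21.3% and 13.5%), a count chosen after the values were seen.

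The strongest opening at Bcl11b was an intronic region 38.8 kb downstream of the start (chr12:107964478-107965070), whose sequence is shown above. It measured 0.184, 0.122 and 0.0402 CPM in WT-LSK and 0.523, 0.530 and 1.05 CPM in URE-LSK. In WT-GMP it measured 0.335, 0.210 and 0.0922 CPM, against 13.6, 12.1 and 11 CPM in URE-GMP. It was thus near the limit of measurement in all WT libraries, low in URE-LSK and well open in the 3 URE-GMP libraries alone. By edgeR's quasi-likelihood test the log2FC was 2.68 (SE 0.49, adjusted p = 0.000204) in LSK and 5.95 (SE 0.38, adjusted p = 1.83e-08) in GMP. The difference between these was 3.27 (SE 0.76, adjusted p = 0.00824). Without WT-LSK replicate 1 it was 2.68 and no longer called (adjusted p = 0.0881).

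Further into the gene, the region 41.5 kb downstream had 1.97, 2.43 and 2.26 CPM in WT-GMP and 8.91, 9.47 and 6.91 CPM in URE-GMP, and at most 0.547 CPM in every LSK library. The region 74.5 kb downstream rested on very few reads in LSK, with 2, 0 and 1 counts in WT and 4, 2 and 12 in UREd/d (adjusted p = 0.0414). In GMP it rose from 0.0837, 0.0839 and 0.0691 CPM in WT-GMP to 2.95, 1.11 and 2.18 CPM in URE-GMP. At 10.4 kb, a region that was open in WT-LSK, at 2.68, 2.86 and 2.35 CPM, and lower in WT-GMP, at 0.628, 1.24 and 1.59 CPM, stood at 4.15 to 5.86 CPM in URE-GMP. Its log2FC was 1.17 in LSK and 2.13 in GMP. The promoter region of Bcl11b was not called in either cell type: it had 4.04, 3.71 and 3.92 CPM in WT-LSK and 7.90, 7.23 and 7.35 CPM in URE-LSK, a log2FC of 0.94 (SE 0.22, adjusted p = 0.00166) that stayed under the threshold of fold.

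**Figure D3:**
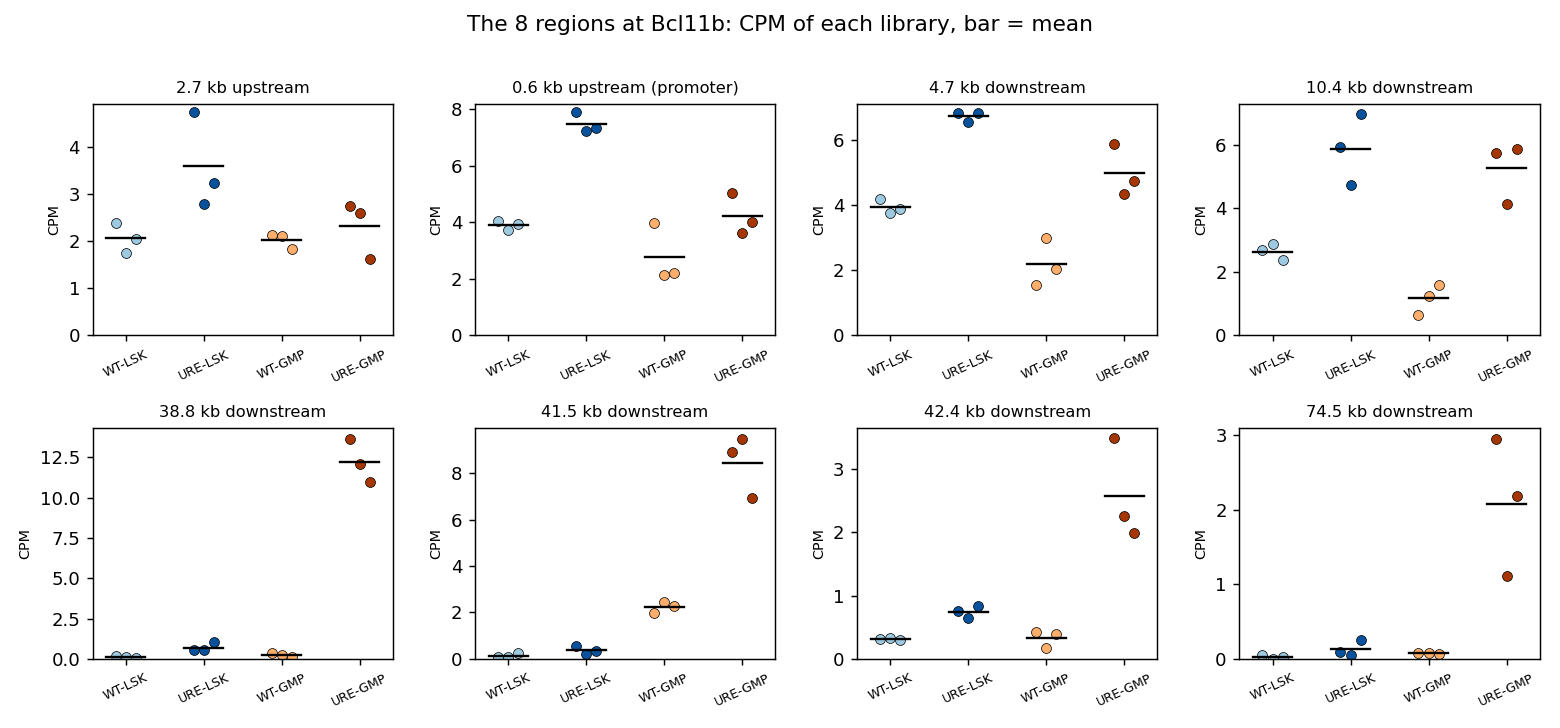
CPM of each library (points) and the group mean (bar) at the 8 regions of Bcl11b, each panel on its own scale from 0, titled by its distance from the gene start. The regions 38.8 to 74.5 kb downstream are open mainly in URE-GMP, with 11 to 13.6 CPM at the highest of them.

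Lef1, an HMG box factor that binds the same sites as TCF1, had 3 regions that rose in LSK and 3 in GMP, against 2 and 3 that fell. Its summed level was 93.3, 99.9 and 89.4 CPM in WT-LSK and 164, 158 and 147 CPM in URE-LSK, where the groups did not overlap. In GMP it was 58.7 to 64.9 CPM in WT and 64.0 to 71.5 CPM in UREd/d, and the groups overlapped.

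The region 68.5 kb downstream in a Lef1 intron (chr3:131178643-131179328) went from nearly closed to open. It measured 0.551, 0.163 and 0.141 CPM in WT-LSK and 14.5, 11.4 and 13.8 CPM in URE-LSK. In GMP it measured 0.460, 0.168 and 0.184 CPM in WT and 2.95, 2.17 and 2.86 CPM in UREd/d. The log2FC was 5.51 (SE 0.38, adjusted p = 1.42e-08) in LSK and 3.44 (SE 0.39, adjusted p = 2.63e-06) in GMP. The difference of -2.08 (SE 0.60, adjusted p = 0.0263) was not called in 4 of the fits that left out a library, down to -1.60 without WT-LSK replicate 3 (adjusted p = 0.0826) or WT-GMP replicate 1 (adjusted p = 0.105). It was also not called without WT-LSK replicate 2 or URE-LSK replicate 1, at -1.83 and -2.01. The region 81.2 kb downstream rose in LSK as well, from 0.604, 1.06 and 0.764 CPM to 3.62, 4.27 and 3.82 CPM. At 47.1 kb, a region with 16.7 to 19.0 CPM in WT-LSK reached 37.0 to 40.9 CPM in URE-LSK.

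The same intron span of Lef1 also held the deepest loss among the members in GMP. The region 108 kb downstream, with the word GAGGAAG, had 1.42, 1.43 and 1.49 CPM in WT-LSK and 0.0952, 0 and 0.0854 CPM in URE-LSK. In GMP it had 1.46, 2.20 and 2.33 CPM in WT and 0.0646, 0.104 and 0.0485 CPM in UREd/d. All 6 UREd/d libraries were near the limit of measurement and far from all WT libraries, with a log2FC of -4.44 (SE 0.49, adjusted p = 1.26e-06) in LSK and -4.70 (SE 0.46, adjusted p = 5.57e-07) in GMP. The next region, 110 kb downstream, went the other way in GMP, from 0.251, 0.336 and 0.3 CPM to 1.85, 2.27 and 2.01 CPM, and not in LSK (log2FC 0.69, adjusted p = 0.247). The strongest region of Lef1, 98 kb downstream, had 34.5 to 39.1 CPM in WT-LSK and 56.2 to 71.0 CPM in URE-LSK, a log2FC of 0.75 (SE 0.10) under the fold threshold.

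Tcf7, which encodes TCF1, showed 1 gain and 2 losses, in LSK and GMP alike. The region that rose lies 6.42 kb downstream (chr11:52276414-52276765), in an intron and at a start of the noncoding gene A630014C17Rik. It measured 0.262, 0.204 and 0.483 CPM in WT-LSK and 0.523, 0.586 and 1.47 CPM in URE-LSK. It measured 2.22, 1.83 and 1.43 CPM in WT-GMP and 7.43, 6.25 and 9.64 CPM in URE-GMP. All UREd/d libraries were above the WT libraries of the same cell type, and GMP libraries above LSK libraries of the same genotype. The log2FC was 2.10 (SE 0.33, adjusted p = 4.97e-05) in GMP. In LSK it was 1.37 (SE 0.43, adjusted p = 0.0127), and not called without URE-LSK replicate 3 (0.71, adjusted p = 0.144), WT-LSK replicate 1 (1.16, adjusted p = 0.0684) or WT-LSK replicate 2 (1.14, adjusted p = 0.0614).

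The intronic region 26.5 kb downstream of the Tcf7 start fell. It had 1.29, 1.18 and 1.65 CPM in WT-LSK and 0.0476, 0.0558 and 0.107 CPM in URE-LSK, a log2FC of -4.21 (SE 0.39, adjusted p = 2.33e-07). In GMP it had 5.48, 4.57 and 3.34 CPM in WT and 0.904, 1.21 and 0.896 CPM in UREd/d, a log2FC of -2.13 (SE 0.26, adjusted p = 4.81e-06). The loss was thus nearly complete in LSK and partial in GMP, with a difference of 2.08 (SE 0.50, adjusted p = 0.00982). The second region to fall, 9.65 kb downstream, had PU.1 words and a log2FC of -1.42 in LSK and -1.07 in GMP. The Tcf7 promoter was not called, with 5.38 to 7.77 CPM in WT-LSK and 7.03 to 7.35 CPM in URE-LSK. The GMP values were 9.17 to 13.3 CPM for WT and 13.1 to 14.1 CPM for UREd/d. Summed over the locus without the Skp1a promoter, the level was 45.5 ± 3.37 CPM in WT-LSK and 48.1 ± 1.5 in URE-LSK (mean ± SD, n = 3). The GMP values were 38.2 ± 1.61 for WT and 50.8 ± 2.24 for UREd/d.

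**Figure D4:**
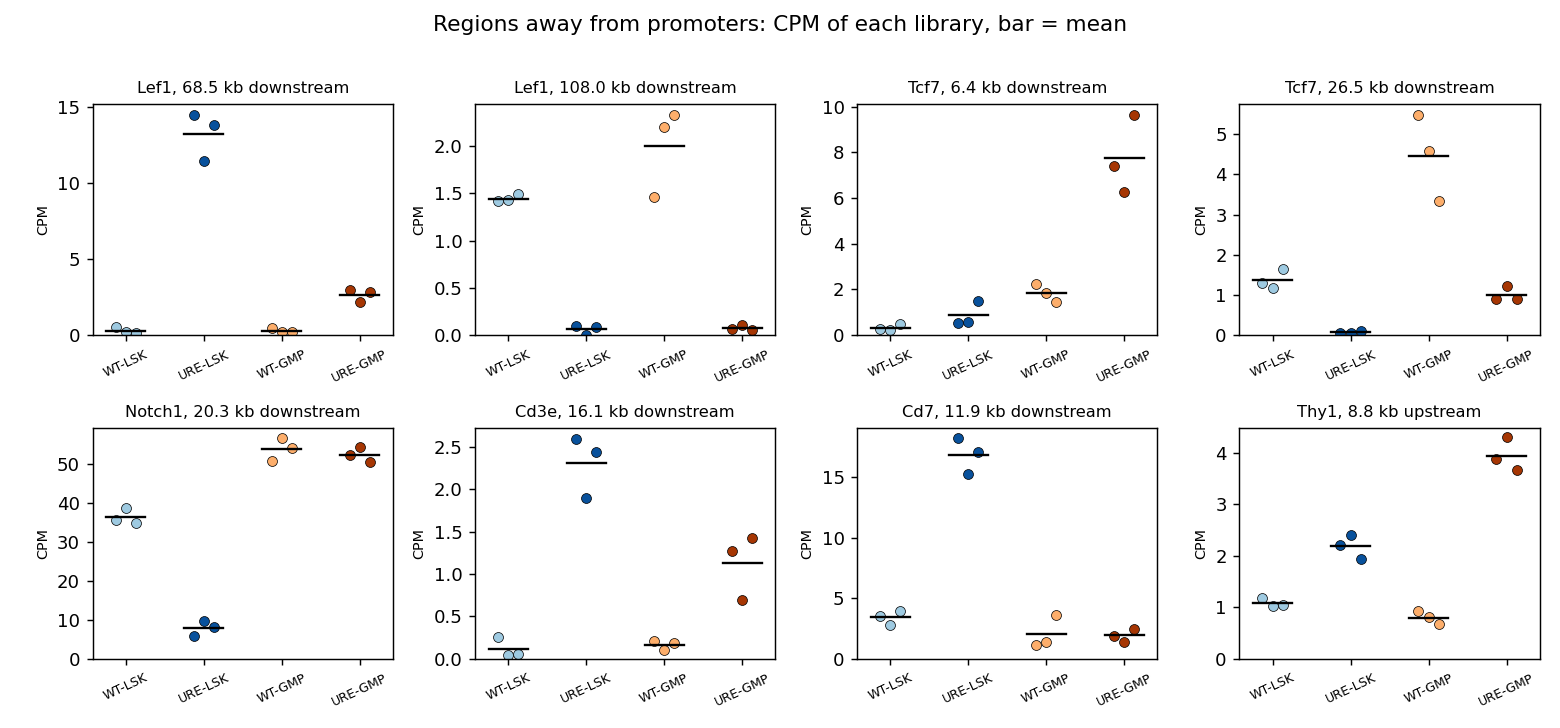
CPM of each library (points) and the group mean (bar) at 8 regions outside the promoters, each panel on its own scale from 0. The Lef1 region at 68.5 kb is nearly closed in WT, that at 108 kb nearly closed in UREd/d cells, and the Notch1 region at 20.3 kb is low in URE-LSK alone.

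Notch1, the receptor that starts the T lineage program, changed in both directions. Of its 23 regions, 3 rose and 4 fell in LSK, and 6 rose and 3 fell in GMP. In LSK the largest difference between group means in CPM was at an intronic region 20.3 kb downstream (chr2:26483106-26483929). It had 35.5, 38.7 and 34.9 CPM in WT-LSK and 5.73, 9.69 and 8.18 CPM in URE-LSK. In GMP it had 50.8, 56.6 and 54.1 CPM in WT and 52.1, 54.2 and 50.5 CPM in UREd/d. URE-LSK thus stood apart from the other 3 groups, whose levels lay between 34.9 and 56.6 CPM. The log2FC was -2.21 (SE 0.14, adjusted p = 6.29e-09) in LSK and -0.04 (SE 0.13, adjusted p = 0.778) in GMP, and the difference of 2.17 (SE 0.18, adjusted p = 7.25e-06) was called in every fit that left out a library.

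A region 31.3 kb downstream in Notch1 fell from 11.6, 13.5 and 13.3 CPM in WT-LSK to 0.309, 0.419 and 0.342 CPM in URE-LSK, the strongest fall of any member region in LSK (log2FC -5.16, SE 0.40). In GMP it fell from 9.17 to 11.2 CPM to 0.848 to 3.47 CPM (log2FC -2.04, SE 0.32), and this difference between cell types was called too (3.13, adjusted p = 0.000722). None of the words searched is in its sequence. A region 10.7 kb downstream with 3 PU.1 words fell in both (log2FC -2.13 and -1.39). Between them, 27.5 kb downstream, a region rose in both: it had 0.483 to 1.02 CPM in WT-LSK and 1.59 to 4.49 CPM in URE-LSK. The GMP values were 7.47 to 11.2 CPM for WT and 25.2 to 26.7 CPM for UREd/d.

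Upstream of Notch1, the region at 26.9 kb fell in both cell types. LSK libraries had 1.29 to 1.43 CPM in WT and 0.119 to 0.256 CPM in UREd/d mice, and GMP libraries 1.80 to 2.29 CPM and 0.172 to 0.538 CPM. The region at 22.1 kb upstream, with an RBPJ word, the motif through which Notch signals act, rose in GMP from 2.13, 2.94 and 3.62 CPM to 7.02, 6.68 and 6.83 CPM (log2FC 1.22, adjusted p = 0.000118). In LSK its log2FC was just under the threshold at 0.999. Of the 25 member regions that rose in GMP, it alone held the RBPJ word (4%, beside 7.09% of all regions that rose in GMP and 9.19% of all regions). The word is also in the Notch1 promoter region and in the region 20.3 kb downstream, which fell in LSK. The region 30.8 kb upstream holds it as well, beside a PU.1 word. The region at 30.8 kb upstream rose in LSK from 4.65 to 6.29 CPM to 8.74 to 14.7 CPM (log2FC 1.03, SE 0.17). It was under the fold threshold in 5 of the fits that left out a library, down to 0.82 without URE-LSK replicate 3. The promoter of Notch1 was higher in UREd/d cells by little, at 44.6 to 49.6 CPM in WT-LSK and 61.2 to 64.6 CPM in URE-LSK (log2FC 0.41), and was not called. The summed level of the locus without the Sec16a promoter was 213 ± 5.68 CPM in WT-LSK and 182 ± 2.68 in URE-LSK. The GMP values were 237 ± 7.55 for WT and 273 ± 4.51 for UREd/d.

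At Cd3e, a subunit of the T cell receptor complex, 3 of 6 regions rose in LSK and 2 in GMP, and none fell. The table held no region within 500 bp of the Cd3e start. The largest gain was at an intergenic region 16.1 kb downstream of the start, past the end of the gene. It had 0.262, 0.0408 and 0.0603 CPM in WT-LSK and 2.59, 1.90 and 2.44 CPM in URE-LSK (log2FC 4.18, SE 0.49, adjusted p = 2.56e-06). In GMP it had 0.209, 0.105 and 0.184 CPM in WT and 1.27, 0.694 and 1.43 CPM in UREd/d (log2FC 2.80, SE 0.48, adjusted p = 0.000125). The groups did not overlap in either cell type, and UREd/d levels stayed low in absolute terms. The strongest region at the locus, 22.9 kb downstream in a noncoding exon or UTR of Cd3d, was higher in both by less than the fold threshold (log2FC 0.39 and 0.46). As the window reaches into Cd3d, these regions cannot be assigned to Cd3e alone.

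At Lck, the kinase of the T cell receptor, no region was called in LSK and 2 rose in GMP. The Lck promoter with the higher level lies 15.1 kb downstream of the most upstream start (chr4:129558245-129558867). It had 7.79, 4.85 and 5.79 CPM in WT-LSK and 7.64, 6.67 and 7.63 CPM in URE-LSK, where the groups overlapped (log2FC 0.25, adjusted p = 0.398). In GMP it rose from 1.92, 1.09 and 2.12 CPM to 4.09, 3.56 and 5.72 CPM (log2FC 1.39, SE 0.26, adjusted p = 0.000285). The difference between cell types was 1.14 (adjusted p = 0.0382), but was not called in 8 of the 12 fits that left out a library (0.93 to 1.24, adjusted p = 0.0534 to 0.0945). At the most upstream start the other Lck promoter had 4.41 to 5.46 CPM in WT-LSK and 3.55 to 3.96 CPM in URE-LSK. The GMP values were 0.881 to 1.27 CPM for WT and 1.39 to 1.66 CPM for UREd/d. It was not called in either, with a difference of 1.01 between the effects. The strongest region outside promoters, 11.6 kb upstream, measured 21.5 to 26.5 CPM in all 12 libraries.

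At Cd7, called regions went both ways in LSK and only down in GMP, where those that rose in LSK were not called. The median log2FC of the Cd7 regions in GMP was 0.21, with 7 of 12 above 0. Of 12 regions, 3 rose and 2 fell in LSK, and none rose and 4 fell in GMP. The summed level was 38.0, 35.2 and 41.3 CPM in WT-LSK and 61.1, 53.2 and 61.5 CPM in URE-LSK, whereas in GMP it was 21.1 to 31.3 CPM in WT and 21.9 to 25.5 CPM in UREd/d. The gain came from 3 intergenic regions downstream of the gene. The strongest, 11.9 kb downstream (chr11:121027280-121027716), had 3.54, 2.77 and 3.98 CPM in WT-LSK and 18.2, 15.3 and 17.1 CPM in URE-LSK (log2FC 2.29, SE 0.32, adjusted p = 1.45e-05). In GMP it had 1.13, 1.43 and 3.62 CPM in WT and 1.92, 1.42 and 2.45 CPM in UREd/d (log2FC -0.14, SE 0.33). The difference was -2.42 (SE 0.46, adjusted p = 0.00211), and -1.66 without WT-GMP replicate 3. The regions 17 and 19.7 kb downstream rose in LSK too, by log2FC of 1.02 and 2.45.

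The Cd7 promoter fell in GMP, from 5.10, 4.11 and 6.41 CPM to 1.25, 1.39 and 2.16 CPM (log2FC -1.71, SE 0.23, adjusted p = 1.31e-05). In LSK it had 10.6, 9.75 and 11.2 CPM in WT and 7.30, 5.25 and 6.73 CPM in UREd/d, apart but under the fold threshold (log2FC -0.71, adjusted p = 0.0103, and -0.38, adjusted p = 0.140, with GC content offsets). The promoter region holds 3 PU.1 words. Next to it, 0.742 kb downstream, a small region fell in both, from 1.84, 1.88 and 2.07 CPM to 0.404, 0.167 and 0.235 CPM in LSK and from 1.59, 1.66 and 1.75 CPM to 0.172, 0.434 and 0.291 CPM in GMP. At 17.5 kb, beside a region that rose in LSK, another fell in both (log2FC -2.39 and -2.62).

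Thy1, whose product marks T cells and is low on stem cells, had calls in both directions in LSK and only gains in GMP. Of its 13 regions, 1 rose and 3 fell in LSK, while 5 rose and none fell in GMP. Without the Usp2 promoter the summed level was 37.3, 35.3 and 41.9 CPM in WT-LSK and 29.6, 31.1 and 31.8 CPM in URE-LSK. In GMP it was 37.7, 37.4 and 37.3 CPM in WT and 60.4, 62.6 and 56.4 CPM in UREd/d. The 5 gains in GMP all lay 8.77 to 12 kb upstream of the start, in an intron of the noncoding gene Gm39323. The clearest, 8.77 kb upstream, had 0.920, 0.818 and 0.668 CPM in WT-GMP and 3.87, 4.30 and 3.66 CPM in URE-GMP (log2FC 2.31, SE 0.22, adjusted p = 4.40e-07). In LSK it had 1.18, 1.02 and 1.05 CPM in WT and 2.21, 2.40 and 1.94 CPM in UREd/d, a log2FC of 1.01 (SE 0.21) at the edge of the fold threshold, which it missed in 7 of the fits that left out a library (0.911 to 0.996). The difference was 1.31 (SE 0.31, adjusted p = 0.00843).

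The Thy1 promoter fell in LSK, from 5.35, 4.49 and 5.79 CPM to 1.52, 1.95 and 1.32 CPM (log2FC -1.71, SE 0.20, adjusted p = 2.16e-06). In GMP it had 4.94, 6.08 and 5.76 CPM in WT and 3.66, 4.20 and 3.61 CPM in UREd/d (log2FC -0.55, SE 0.19). The difference was 1.16 (SE 0.27, adjusted p = 0.00812). The strongest region of the gene outside promoters, 4.12 kb downstream, also fell in LSK, from 11.8 to 15.3 CPM to 5.42 to 6.31 CPM (log2FC -1.22), and by 0.95 with GC content offsets, under the fold threshold. Both hold a PU.1 word.

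**Figure D5:**
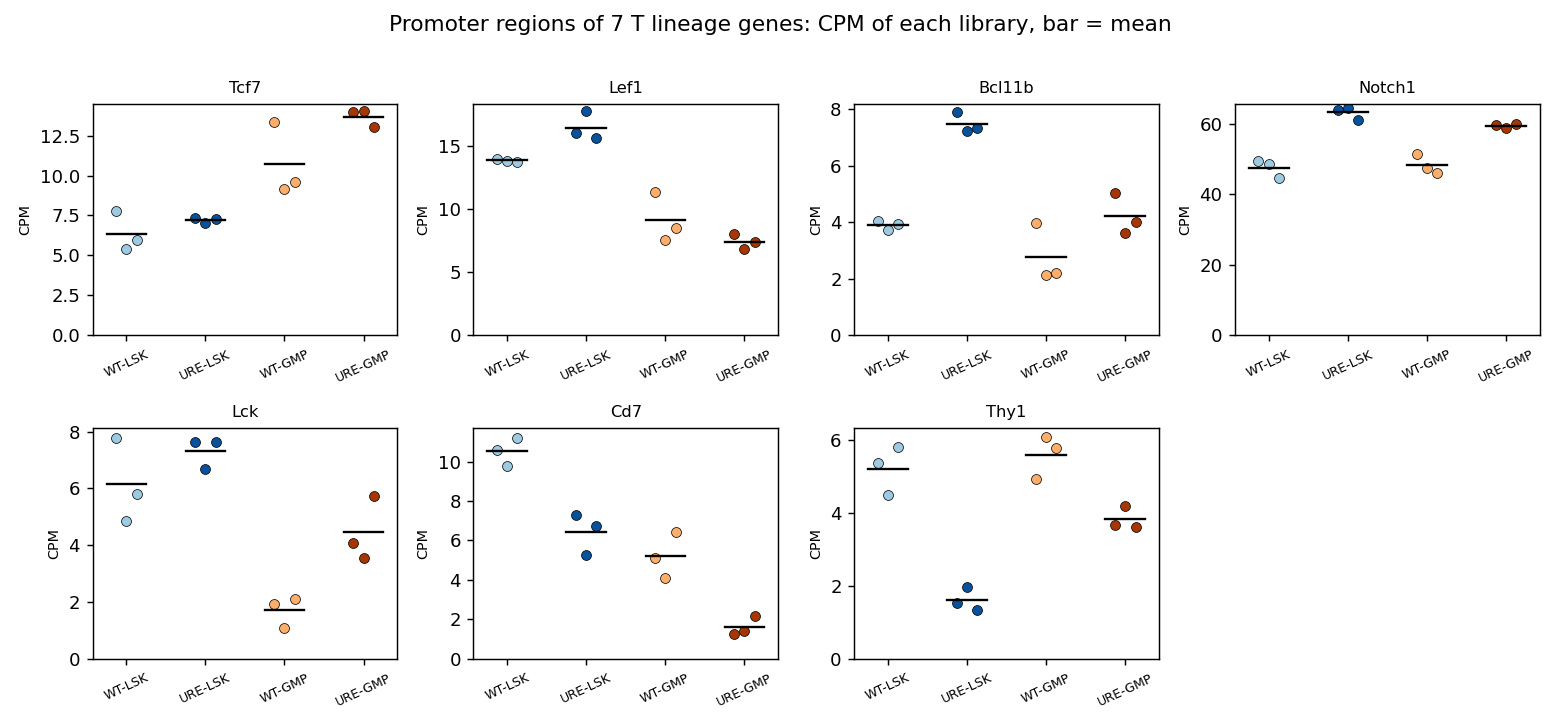
CPM of each library (points) and the group mean (bar) at the promoter regions of 7 of the genes (Cd3e has none), each panel on its own scale from 0. Thy1 is low in URE-LSK (1.32 to 1.95 CPM), Cd7 in URE-GMP (1.25 to 2.16 CPM) and Lck in WT-GMP (1.09 to 2.12 CPM).

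The step from LSK to GMP gives the scale of these changes. In WT cells 14 member regions were higher and 15 lower in GMP than in LSK (21% and 16.8% of all regions), and in UREd/d cells 23 were higher and 20 lower (27.6% and 21.6%). The regions that open in WT-GMP include the Tcf7 region at 6.42 kb (log2FC 2.41) and the Bcl11b region at 41.5 kb (log2FC 3.89), both of which rose further with the deletion. The regions that close include the Lef1 region at 47.1 kb (log2FC -2.41) and the Lck promoter (log2FC -1.86). Since the WT step shares its libraries with the genotype comparisons, these values are set side by side and not related to them.

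Sequence words were counted in the regions that rose and fell. Of the 13 regions that fell in LSK, 7 held GAGGAAG (53.8%), and of the 19 that rose 2 (10.5%). Over the whole table the word was in 45.2% of the regions that fell in LSK, 12.8% of those that rose and 28.0% of all. In GMP it was in 5 of the 12 that fell (41.7%) and in 0 of the 25 that rose, beside 43.1% and 13% over the table. The RUNX word was in 8 of the 19 regions that rose in LSK (42.1%), and 1 of the 13 that fell (7.69%), beside 28.3%, 13.8% and, over all regions, 17.3%. In GMP it was in 7 of the 25 that rose (28.0%) and 3 of the 12 that fell (25%), beside 21.9% and 14.6%. The CEBP word was in 17 of the 97 regions (17.5%, beside 20.5% of all) and the GATA word in 7 (7.22%, beside 15.7%). In LSK the CEBP word was in 4 of the 19 that rose (21.1%) and 4 of the 13 that fell (30.8%), beside 24.2% and 17.7% over the table. In GMP it was in 6 of the 25 that rose (24%) and 3 of the 12 that fell (25%), beside 31.1% and 15.3%. The words ATCAAAG of TCF1 and Lef1, CACCTG of E proteins and GTGGGAA of RBPJ were in 4, 26 and 12 of the 97 regions (4.58%, 25.5% and 9.19% of all regions). Among the regions that rose in LSK or GMP, ATCAAAG was in 1 each time, the Thy1 region at 8.77 kb upstream. These matches are descriptions of sequence, with no test, in regions with a median length of 340 bases for those that rose and 311 for those that fell in LSK, 314 and 282 in GMP, and 322 in all.

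At 39 other T lineage genes the table held 472 regions beyond the 97. There 63 rose and 124 fell in LSK (13.3% and 26.3%), and 78 rose and 104 fell in GMP (16.5% and 22.0%), close to the shares of all regions, with medians of 0.11 and 0.10. With GC content offsets 98 rose and 102 fell in LSK (20.8% and 21.6%), and 106 and 90 in GMP (22.5% and 19.1%), again close to all regions under those offsets (22.0% and 20.4%, 21.9% and 19.9%). By role, the surface and cytokine receptors, such as Il7r and Cd4, had 96 regions. Of these, 12 rose and 36 fell in LSK (12.5% and 37.5%), and 10 rose and 31 fell in GMP (10.4% and 32.3%). At the recombination genes Rag1, Rag2 and Dntt, none of 23 regions rose, while 6 fell in LSK (26.1%) and 7 in GMP (30.4%). Genes of the T cell receptor complex and its signalling had 19 of 115 regions higher and 29 lower in LSK (16.5% and 25.2%). In GMP they had 21 and 25 (18.3% and 21.7%). Notch pathway genes, such as Hes1 and Rbpj, had 15 of 99 higher and 26 lower in LSK (15.2% and 26.3%), and 24 and 21 in GMP (24.2% and 21.2%). Transcription factors, such as Gata3 and Tox, had 17 of 139 higher and 27 lower in LSK (12.2% and 19.4%), and 23 and 20 in GMP (16.5% and 14.4%). The shares over all regions were 13.6% and 23.9% in LSK and 15.6% and 24.1% in GMP.

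Promoters of mature T cell and NK cell markers were read beside these changes. Of 12 mature T cell markers, Cd3e, Cd3d, Cd3g, Cd2, Cd8a and Zap70 had no promoter region in the table. The other 6 summed to 91.6 to 97.7 CPM in WT-LSK and 100.03 to 114.4 CPM in URE-LSK. The GMP values were 53.1 to 65.8 CPM for WT and 65.7 to 72.3 CPM for UREd/d. They did not move together: the Cd4 promoter was at 2.03 to 2.61 CPM in WT-LSK and 0.0238 to 0.140 CPM in URE-LSK, and Cd5 at 12.5 to 14.0 and 2.47 to 2.54 CPM, while Lat was at 41.2 to 45.2 and 51.3 to 60.4 CPM. The 5 NK cell markers with a promoter region summed to 26.6 to 33.0 CPM in WT-LSK and 52.6 to 66.2 CPM in URE-LSK. Of these, Gzmb was at 2.53 to 3.70 CPM in WT-LSK and 16.3 to 21.8 CPM in URE-LSK. Prf1 was at 7.18 to 10.5 and 13.9 to 18.1 CPM, and Eomes at 12.6 to 14.7 and 17.2 to 22.7 CPM. Tbx21 was at 2.01 to 2.78 and 2.52 to 2.96 CPM, where the groups overlapped. Klrb1c alone was lower, at 1.05 to 1.43 and 0.491 to 0.738 CPM. In GMP the NK sum was 22.1 to 24.3 CPM in WT and 36.9 to 40.6 CPM in UREd/d. Other lists moved with genotype as well, while the B cell markers, 2 with a promoter region, overlapped in LSK (8.58 to 9.37 CPM in WT and 7.39 to 9.85 CPM in UREd/d). In GMP the B cell sum was 9.33 to 9.98 CPM in WT and 7.20 to 8.47 CPM in UREd/d. Monocyte and dendritic cell markers summed to 27.7 to 34.7 CPM in WT-LSK and 9.36 to 10.7 CPM in URE-LSK, and to 61.7 to 87.7 and 27.6 to 38.1 CPM in GMP. The GMP markers were at 335 to 349 CPM in URE-GMP and, with an uneven spread between libraries, at 25.1 to 51.1 CPM in URE-LSK. They did not move together either. Mpo, Elane, Ctsg and Cebpe had higher means in URE-GMP than in WT-GMP. Prtn3 (15.9 CPM in WT-GMP and 14.0 in URE-GMP) and Ms4a3 (16.9 and 11.8) had lower means, with overlapping groups. In LSK the mean of Ctsg was 3.32 CPM in WT and 12.7 CPM in UREd/d, while Mpo, Elane, Prtn3 and Cebpe had lower means in URE-LSK. The erythroid and megakaryocyte markers were at 49.2 to 65.6 CPM in WT-LSK and 72.7 to 74.7 CPM in URE-LSK. Whether a different makeup of the sorted fractions, NK or T cells included, had a part in the changes was not tested. The T cell defining markers Cd3d, Cd3g, Cd2 and Cd8a were not among the promoter regions.

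For the 3 promoters that were called, the most similar promoters on other chromosomes were sought over the 12 libraries (Pearson r of log2(CPM + 0.5)). The Thy1 promoter was most like those of Ccl24 (r = 0.99) and Rgs19 (0.98), Cd7 like Clnk and Fam181b (both 0.98), and Lck like Fermt1 (0.97) and Mpv17 (0.96). These were the highest of 13501 to 13887 promoter regions compared, and the 12 points fall into 4 groups, so r reflects the group pattern.

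At the edge of the window, the member farthest from its gene body, the Skp1a promoter region 19.9 kb from Tcf7, had a log2FC of 0.29 in LSK and 0.24 in GMP. The nearest region left out, 21.5 kb from Lef1, had 0.50 and 0.18.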

How the data were processed

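ATAC-seq had been performed on sorted LSK and GMP of WT and UREd/d mice, with 3 libraries per group, each from a separate mouse. The authors trimmed reads (cutadapt), aligned them to GRCm38 (Bowtie2), removed duplicates, called peaks per group (Genrich), merged them (bedtools) and deposited raw counts per region (featureCounts). Tool versions, and whether fragments or read ends were counted, are not given in the sources used here. Counts depend on the merged peaks, so a region open in few cells may be missing from the table.

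Counts of all 12 libraries were fitted in edgeR 4.0.16 (R 4.3.3) with TMM factors, 1 coefficient per group and the quasi-likelihood test. Adjusted p-values are Benjamini-Hochberg values over all 121336 regions. Calls needed an adjusted p under 0.05 and an absolute log2 fold change over 1. The edgeR filter on low counts removed no region. CPM and region positions were read from the same table, and genes from GENCODE M21 basic. The steps were tested on simulated data.

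For each gene, the regions named were its strongest promoter region, its strongest other region, and the called region with the smallest p per comparison and direction. Further regions of these genes were chosen after their values were seen. The member genes, gene lists and motifs were chosen with earlier results of these data known. Alternatives covered scaling (RLE, library size, promoter TMM, GC content and loess offsets, with limma 3.58.1), DESeq2 1.42.0, filters, thresholds, windows, a replicate block and leaving out each library. Libraries of WT-LSK and WT-GMP with the same number deviated together (r = 0.181, 0.191 and 0.207), above the limit of 0.1, and the replicate block left the WT step at 14 higher and 15 lower. Between WT-GMP and URE-GMP, which come from different mice, libraries with the same number had r of 0.0997, 0.205 and 0.349. The correlations are a hint from the data, since the labels do not say what a number marks. CPM and counts carry counting error, and regions near 3 counts in a library are imprecise.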

Additional observations from a re-analysis of the deposited data

Results flagged for a closer look

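At 9 of the regions named, the effect of the deletion differed between GMP and LSK by the interaction term of edgeR's quasi-likelihood fit, given as the log2 fold change in GMP minus that in LSK. Positive values were 2.08 at the Tcf7 region 26.5 kb downstream, 3.27 at the Bcl11b region 38.8 kb downstream, 2.17 at the Notch1 region 20.3 kb downstream, 1.14 at the Lck promoter, 1.31 at the Thy1 region 8.77 kb upstream and 1.16 at the Thy1 promoter. Negative values were -2.08 at the Lef1 region 68.5 kb downstream, -1.003 at the Cd7 promoter and -2.42 at the Cd7 region 11.9 kb downstream. At Tcf7, Notch1 and the Thy1 promoter the region fell in LSK and had a smaller change in GMP, and at Bcl11b, Lck and the upstream Thy1 region the gain was larger in GMP.

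The values at the Lck and Cd7 promoters depended on single libraries: the first was not called in 8 and the second in 9 of the 12 fits that left out a library, where the values ran from 0.93 to 1.45 and from -1.27 to -0.74. With TMM factors from promoter regions the Cd7 promoter had -0.96 (adjusted p = 0.0546). The Lef1 value was not called in 4 such fits, and the Bcl11b value in 1, without WT-LSK replicate 1.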

How the results depend on the processing

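Counts below are called regions, higher or lower in UREd/d unless stated, against 19 and 13 in LSK, 25 and 12 in GMP, and 16 positive and 4 negative differences between the cell types. TMM factors from promoter regions gave 11 higher in LSK. Restricting to a mean CPM of at least 2 left 68 member regions, with 8 and 6 called in LSK and 14 and 4 in GMP. Of all regions so kept, 9.72% and 17.6% were called in LSK and 10.3% and 17.7% in GMP. This filter gave 9 positive differences (8.37% of all regions) and 7 regions higher in the WT step from LSK to GMP (15.8% of all). In the UREd/d step it gave 13 higher and 12 lower (21.9% and 18.6% of all). With glmTreat there were 7 higher and 9 lower in LSK, beside 7.13% and 18.8% of all regions. In GMP there were 13 and 7, beside 9.44% and 17.5%. It gave 2 positive and 1 negative difference (2.43% and 0.622% of all regions). In the WT step 8 were lower (9.02% of all) and in the UREd/d step 10 (15.3% of all). With no fold threshold, 32 were higher in LSK and 47 in GMP, beside 27.9% and 29.6% of all regions. Under this setting 27 were lower in the WT and 32 in the UREd/d step, beside 28.6% and 32.6% of all regions. Gene bodies with no extension held 51 regions. They gave 11 higher in LSK (21.6%), 16 in GMP (31.4%), 10 positive differences (19.6%), 7 higher in the WT step (13.7%), and 15 higher and 10 lower in the UREd/d step (29.4% and 19.6%). An extension of 5 kb held 61 regions and gave 12 (19.7%), 16 (26.2%), 10 (16.4%), 7 (11.5%) and 15 (24.6%) for the same counts of higher regions and positive differences. One of 50 kb held 168 regions and gave 27 higher and 28 lower in LSK (16.1% and 16.7%), and 38 and 20 in GMP (22.6% and 11.9%). It also gave 28 positive differences (16.7%), 31 higher and 23 lower in the WT step (18.5% and 13.7%), and 46 higher in the UREd/d step (27.4%). The shares of all regions to set beside these are those given in the Results. These windows and filters hold fewer or more regions by construction, and for the scalings the cause was not tested.

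For the 39 other genes (63 and 124 in LSK, 78 and 104 in GMP), LSK had 98 higher with GC content offsets, 97 with these and the replicate block, 33 and 69 with a mean CPM of at least 2, 29 higher with glmTreat and 137 with no fold threshold. Under the last filters GMP had 44 and 61, 47 and 148. The CPM filter left 322 of the regions at these genes, and the shares of all regions under the same filters are those given above.

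Leaving out 1 library gave 12 to 20 higher and 13 to 14 lower in LSK, 22 to 27 and 10 to 13 in GMP, and 8 to 16 positive and 1 to 6 negative differences. The 12 higher in LSK came without WT-LSK replicate 2. The fewest positive differences, 8, came without URE-LSK replicate 1 or URE-GMP replicate 1, and there were 10 without WT-LSK replicate 1 or 3, URE-LSK replicate 3 or URE-GMP replicate 2. Negative differences numbered 1 without WT-LSK replicate 3 and 2 without WT-LSK replicate 2, WT-GMP replicate 1 or URE-GMP replicate 1. In the WT step 13 to 14 were higher and 14 to 21 lower, and in the UREd/d step 21 to 23 and 17 to 21. At the other genes the ranges were 54 to 66 and 117 to 127 in LSK, and 77 to 83 and 102 to 114 in GMP.

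Signs changed only at named values that were not called. With GC content offsets, without and with the replicate block, these were the Tcf7 promoter in LSK (-0.16 and -0.15), Notch1 9.75 kb upstream in GMP (0.045 and 0.040), Notch1 20.3 kb downstream in GMP (0.036 and 0.039), Lck 11.6 kb upstream in LSK (0.082 and 0.082) and Cd7 11.9 kb downstream in GMP (0.25 and 0.30). With RLE factors and with DESeq2, Notch1 at 20.3 kb had 0.012 and 0.013, and Lck 0.031 and 0.029. With loess offsets Lef1 at 98 kb had -0.029 in GMP. Cd7 at 11.9 kb had 0.57 in GMP without WT-GMP replicate 3 and 0.047 without URE-GMP replicate 2, and down to -0.43 without WT-GMP replicate 1.

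The median log2 fold change of all regions moved from -0.04 to 0.28 in LSK and from -0.08 to 0.20 in GMP with the scaling. The replicate block gave 19 and 13 in LSK, 26 and 12 in GMP, 16 and 4 differences, and 23 and 19 in the UREd/d step. In the LSK, GMP and UREd/d comparisons the replicate numbers did not all pair (r from -0.062 to 0.349 between libraries of the same number). The difference between cell types could not be fitted with only the groups compared.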
